A study of Homo sapiens with 20 samples.

Results

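The epidermal differentiation complex and the S100 cluster lie next to each other on human chromosome 1. The members described here are the 65 protein-coding genes that start in a fixed window of that chromosome holding both clusters, out of 60232 genes in the table. They run from S100A10 at chr1:151982915-151993859 to CHTOP at chr1:153633982-153646306, over 1.663 Mb in GRCh38 coordinates. Membership rests on position and gene type alone.

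The epidermal differentiation complex holds structural genes of the outer skin. Involucrin, loricrin, the late cornified envelope (LCE) proteins and the small proline-rich (SPRR) proteins are cross-linked by transglutaminases into the cornified envelope, which replaces the plasma membrane of a dying keratinocyte. Filaggrin and its relatives are long repeat proteins that carry an S100-type calcium-binding domain at one end and bind or coat keratin filaments and the envelope. The S100 genes on both sides encode small calcium-binding proteins, some made in most epithelia and others known from inflamed skin or myeloid cells. The structural genes are known for their restriction to stratified epithelium, so gastric glandular cells normally leave most of the locus silent.

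RNA was sequenced from 5 gastric cancer cell lines after decitabine (DCB), a cytidine analog that depletes DNA methyltransferases from dividing cells, or after its solvent DMSO. DCB treatment lasted 72 h. YCCEL1 and SNU719 carry Epstein-Barr virus (EBV+) and AGS, HGC27 and SNU16 do not (EBV-). YCCEL1, SNU719 and AGS have the CpG island methylator phenotype (CIMP+), a widespread gain of promoter methylation, and HGC27 and SNU16 do not (CIMP-). Each of the 10 groups of line and treatment had 2 libraries, 20 in all. Each EBV and CIMP class therefore rests on 2 or 3 cell lines, and its effect cannot be told apart from other differences between those lines. Whether the 2 libraries of each group stem from separate cultures is not given in the labels. The p-values then cover only the variation from library to library, which may be technical.

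Values are the deposited normalized counts, which are not whole numbers. They summed to 7764408 to 9321014 per library, and 1 read was worth 0.754 to 1.21 normalized counts where low values allowed the step to be read. A value near 10 thus rests on about as many reads. HGC27 stood apart from the other lines: the simple epithelial markers EPCAM, CDH1, KRT8, KRT18 and KRT19 together reached 485 to 609 in its DCB libraries and 115 to 173 in its DMSO libraries, against 31499 to 101130 in the libraries of the other 4 lines. Its 5 fibroblast markers summed to 45343 to 48677, against 7.33 to 2002 in the other lines. Results that pool lines are therefore also given without HGC27 where that changes them. Defining myeloid genes were low, except LYZ, which is also a gastric gland gene and made up most of a sum of 16166 to 71565 in YCCEL1, SNU719 and AGS. In bulk RNA, fewer expressing cells and less RNA per cell cannot be told apart.

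Of the 65 members, 22 were at 0 in every library and 13 more were above 0 somewhere but too low to be tested. The other 30 passed the filter, a sum above 10 over the 20 libraries, and many low members passed it only through the libraries in which they were high. Families were set by gene symbol. By family, 13 of 17 S100 genes were tested, 3 of 7 fused S100-type genes, 5 of 18 LCE genes, 4 of 11 SPRR genes, 4 of 8 other cornified envelope and late genes of the complex, 0 of 2 PGLYRP genes and 1 of the 2 remaining rows. The untested remaining row, AL162596.1, is named LCE7A in the GENCODE annotation and was at 0 in every library. The heat map of the members above 0 shows the locus as high S100 ends around a mostly silent middle.

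**Figure D1:**
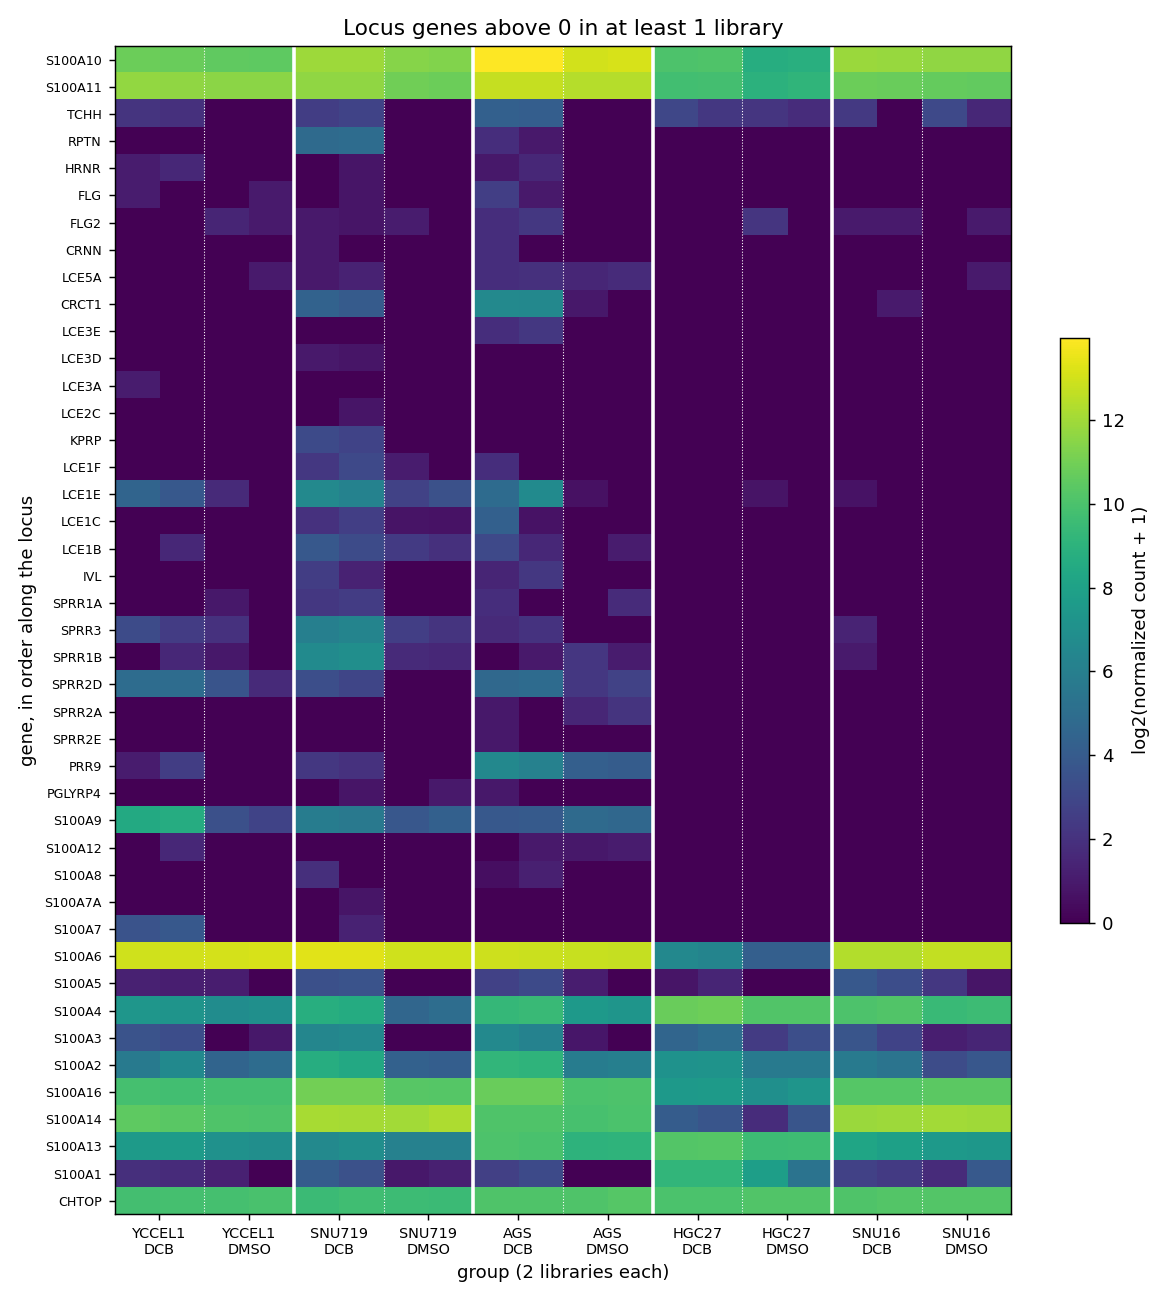
Heat map of log2(normalized count + 1) for the 43 members above 0 in at least 1 library, in genome order from top to bottom, with the DCB and DMSO libraries of each line side by side. The middle rows are lit mainly in DCB libraries of SNU719 and AGS, while S100A10, S100A11, S100A6, S100A16 and CHTOP are lit in every library.

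Because the DNA methyltransferases that DCB depletes methylate CG dinucleotides, the promoters of the members are shown first. Methylation was not measured in these libraries. RefSeq promoter windows (GRCh38.p14, 250 bases before to 50 after the start) were found for 60 of the 65 members, 68 windows in all. A member was said to open in a line when its mean was under 10 normalized counts in DMSO, 10 or more in DCB, and the gene was called higher in that line. The windows printed are those of 6 members that opened and, for contrast, of S100A10, which was on in every library. The letters run 5′ to 3′ on the gene's strand, and capitals mark each CG.

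RPTN, chr1:152159179-152159478, minus strand: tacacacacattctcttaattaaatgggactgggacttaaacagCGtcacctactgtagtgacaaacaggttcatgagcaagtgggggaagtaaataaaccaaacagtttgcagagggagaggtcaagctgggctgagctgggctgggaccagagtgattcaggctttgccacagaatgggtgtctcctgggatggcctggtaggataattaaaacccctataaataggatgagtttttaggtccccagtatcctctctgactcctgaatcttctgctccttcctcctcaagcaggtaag
LCE1E, chr1:152786007-152786306, plus strand: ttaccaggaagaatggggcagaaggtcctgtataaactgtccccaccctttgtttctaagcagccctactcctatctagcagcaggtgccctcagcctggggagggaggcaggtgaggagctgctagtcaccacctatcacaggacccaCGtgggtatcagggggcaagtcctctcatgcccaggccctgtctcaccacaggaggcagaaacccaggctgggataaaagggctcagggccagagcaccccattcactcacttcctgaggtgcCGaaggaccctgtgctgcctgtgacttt
SPRR3, chr1:153001499-153001798, plus strand: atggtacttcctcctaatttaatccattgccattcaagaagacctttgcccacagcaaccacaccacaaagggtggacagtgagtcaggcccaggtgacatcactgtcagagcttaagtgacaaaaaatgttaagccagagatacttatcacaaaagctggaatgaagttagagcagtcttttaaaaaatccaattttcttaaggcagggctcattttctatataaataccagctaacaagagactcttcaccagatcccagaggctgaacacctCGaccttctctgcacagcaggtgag
SPRR1B, chr1:153030953-153031252, plus strand: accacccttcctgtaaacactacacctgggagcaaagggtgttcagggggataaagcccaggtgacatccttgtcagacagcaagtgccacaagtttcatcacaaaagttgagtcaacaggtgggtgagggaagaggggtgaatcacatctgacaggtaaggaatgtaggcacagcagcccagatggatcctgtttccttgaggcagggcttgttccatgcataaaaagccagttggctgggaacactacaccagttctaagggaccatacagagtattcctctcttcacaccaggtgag
S100A9, chr1:153357604-153357903, plus strand: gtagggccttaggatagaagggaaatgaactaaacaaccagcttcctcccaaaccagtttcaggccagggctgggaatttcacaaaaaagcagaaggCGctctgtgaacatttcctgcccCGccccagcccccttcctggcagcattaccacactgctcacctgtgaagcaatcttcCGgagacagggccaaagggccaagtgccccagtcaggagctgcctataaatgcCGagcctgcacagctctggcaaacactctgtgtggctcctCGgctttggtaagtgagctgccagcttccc
S100A3, chr1:153549209-153549508, minus strand: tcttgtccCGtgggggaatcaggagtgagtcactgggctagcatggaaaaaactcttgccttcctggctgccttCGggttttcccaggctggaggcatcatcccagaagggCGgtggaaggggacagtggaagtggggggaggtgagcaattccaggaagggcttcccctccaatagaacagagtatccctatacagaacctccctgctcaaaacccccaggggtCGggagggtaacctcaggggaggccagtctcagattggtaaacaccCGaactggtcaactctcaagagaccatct
S100A10, chr1:151993810-151994109, minus strand: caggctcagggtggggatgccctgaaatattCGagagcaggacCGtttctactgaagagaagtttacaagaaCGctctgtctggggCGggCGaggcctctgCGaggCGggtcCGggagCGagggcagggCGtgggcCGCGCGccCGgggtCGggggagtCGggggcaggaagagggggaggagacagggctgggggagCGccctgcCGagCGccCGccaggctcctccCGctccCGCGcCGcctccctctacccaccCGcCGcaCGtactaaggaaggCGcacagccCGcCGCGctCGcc

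These windows differ in how many CGs they hold. S100A10 had 32, against 5 each in S100A9 and S100A3, 2 in LCE1E, 1 each in RPTN and SPRR3 and 0 in SPRR1B. Over the 68 windows of the locus the median was 3 CGs, against 14 over all 35116 windows of the table. The 11 windows of members that opened had a median of 3 (range 0 to 6), and the 22 windows of members at 0 in every library had a median of 2 (range 1 to 4). Only S100A10, S100A6, CHTOP, S100A11 and one start of S100A13 exceeded the table's median. The opening members thus lay within the CG-poor majority of the locus, and their CG count did not set them apart from members that stayed at 0.

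**Figure D2:**
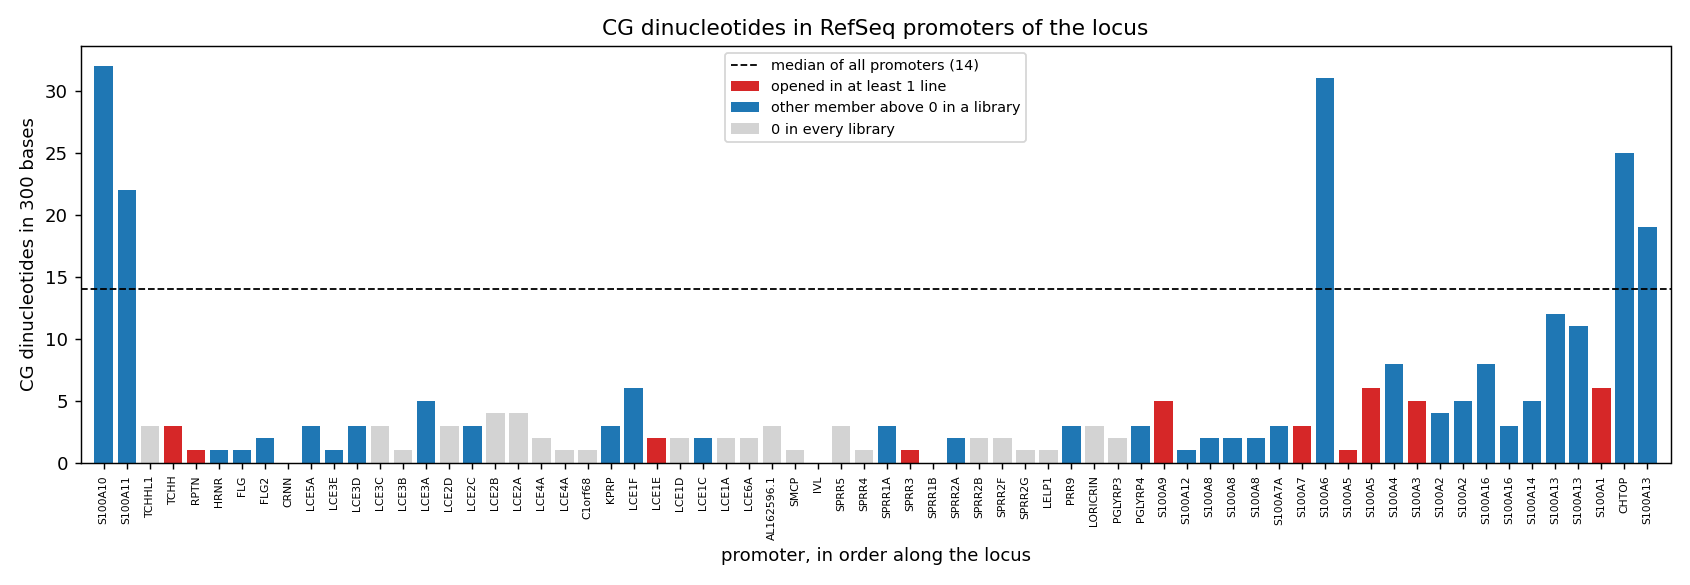
Number of CG dinucleotides in each 300-base RefSeq promoter window of the locus, in genome order. Bars in red are members that opened in at least 1 line, bars in blue other members above 0 in a library, and bars in grey members at 0 throughout. The dashed line is the median of all windows, 14, and every red bar is at 6 or below.

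Short motifs were counted on both strands of the same windows. TGANTCA, the site form bound by AP-1, was present in 6 of the 11 windows of opening members (54.5%), in 29.4% of the 68 locus windows and in 7.7% of all windows. The letters TATAAA, the core of the promoter box bound by TBP, were present in 48.5% of locus windows and 11.5% of all windows. The letters CACCC, a core of KLF sites, were present in 73.5% of locus windows and 59.9% of all windows. Many of the windows belong to duplicated gene families, so they are not independent. A match is a description of the letters only.

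In DMSO the locus was on at its S100 ends and nearly off between them. Members above 0 in both libraries numbered 20 in YCCEL1 with DCB and 12 with DMSO, 30 and 16 in SNU719, 29 and 16 in AGS, 13 and 12 in HGC27, and 13 and 13 in SNU16. The added members in the CIMP+ lines were mostly LCE, SPRR, fused and other envelope genes. The same count was not made over all genes, so these numbers do not show a gain particular to the locus. Median depth, as read equivalents, was 8765708 in DCB libraries and 8900758 in DMSO libraries, but it differed by line. SNU719 had 8404162 and 10731382 with DCB against 7988775 and 8755583 with DMSO. AGS had 9439444 and 8244839 with DCB against 9045932 and 7243216 with DMSO. In HGC27 both DCB libraries were the deeper ones, and in YCCEL1 and SNU16 both were the shallower ones. The part of depth in the numbers of members above 0 was not tested.

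Each line's response was tested with limma on log2(value + 1) over 27350 genes, with Benjamini-Hochberg adjustment. Each gene has a single spread, pooled over all 10 groups. Groups at 0 in both libraries add nothing to that spread. The p-values of genes at 0 in most groups, such as RPTN, KPRP and IVL, can therefore be too small. "Rose" and "fell" stand for an adjusted p under 0.05, and "called" for a log2 fold change past 2 in addition. The pseudocount makes the fold change of low genes smaller than the ratio of their values. In YCCEL1, 6 members were called higher, beside 7.99% of all genes tested. In SNU719, 16 were called higher (6.38% of all genes), in AGS 11 (9.02%), in HGC27 2 (4.95%) and in SNU16 2 (2.31%). No member was called lower in any line, where 0.197% of all genes were called lower in YCCEL1, 0.249% in SNU719, 0.636% in AGS, 0.618% in HGC27 and 0.135% in SNU16. SNU719 had the highest count, and both CIMP- lines had the lowest, at 2 of the 30 tested members each. With a pseudocount of 5 the counts were 1 in YCCEL1, 8 in SNU719, 5 in AGS, 1 in HGC27 and 0 in SNU16. Shares of all genes were not counted at that pseudocount, so these counts have no background to be read against.

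Without the limit on fold, 12 members rose in YCCEL1 (14.6% of all genes), 24 in SNU719 (13.5%), 20 in AGS (18.5%), 10 in HGC27 (14.7%) and 6 in SNU16 (4.5%). The single fall was S100A6 in SNU16, where 2.34% of all genes fell. No member fell in YCCEL1 (6.93% of all genes fell), SNU719 (7.64%), AGS (9.13%) or HGC27 (9.03%). At an unadjusted p under 0.05 in limma, the members lower numbered 0 in YCCEL1, 0 in SNU719, 1 in AGS (S100A9), 1 in HGC27 (CHTOP) and 1 in SNU16 (S100A6). The share of all genes at an unadjusted p was not counted. Among the 17 tested members outside the S100 family, 5 rose in YCCEL1, 13 in SNU719, 11 in AGS, 0 in HGC27 and 0 in SNU16. In HGC27 and SNU16 none of the 17 was higher at an unadjusted p under 0.05 in limma either, with 0 in each line. Many of the 17, such as RPTN, CRCT1, KPRP and IVL, passed the filter through DCB libraries of CIMP+ lines. They were at or near 0 in both CIMP- lines. These counts are thus no comparison with the S100 genes, nor between CIMP+ and CIMP- lines.

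Across lines, 21 members were called higher in at least 1 line: 12 in a single line, 2 in 2 lines, 7 in 3 lines and 0 in more. The members that opened numbered 4 in YCCEL1 (4.38% of all genes opened), 8 in SNU719 (3.28%), 5 in AGS (5.24%), 0 in HGC27 (2.5%) and 1 in SNU16 (1.23%). In YCCEL1 these were LCE1E, SPRR2D, S100A9 and S100A7. In SNU719 they were RPTN, CRCT1, LCE1E, SPRR3, SPRR1B, S100A5, S100A3 and S100A1. In AGS they were TCHH, CRCT1, LCE1E, SPRR2D and S100A3. In SNU16 the only one was S100A5. Of these 12 genes, 7 opened in 1 line, 4 in 2 lines, and LCE1E in 3. Neither the calls nor the openings were tallied by number of lines over all genes. How far lines shared them is thus not shown to be particular to the locus.

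**Figure D3:**
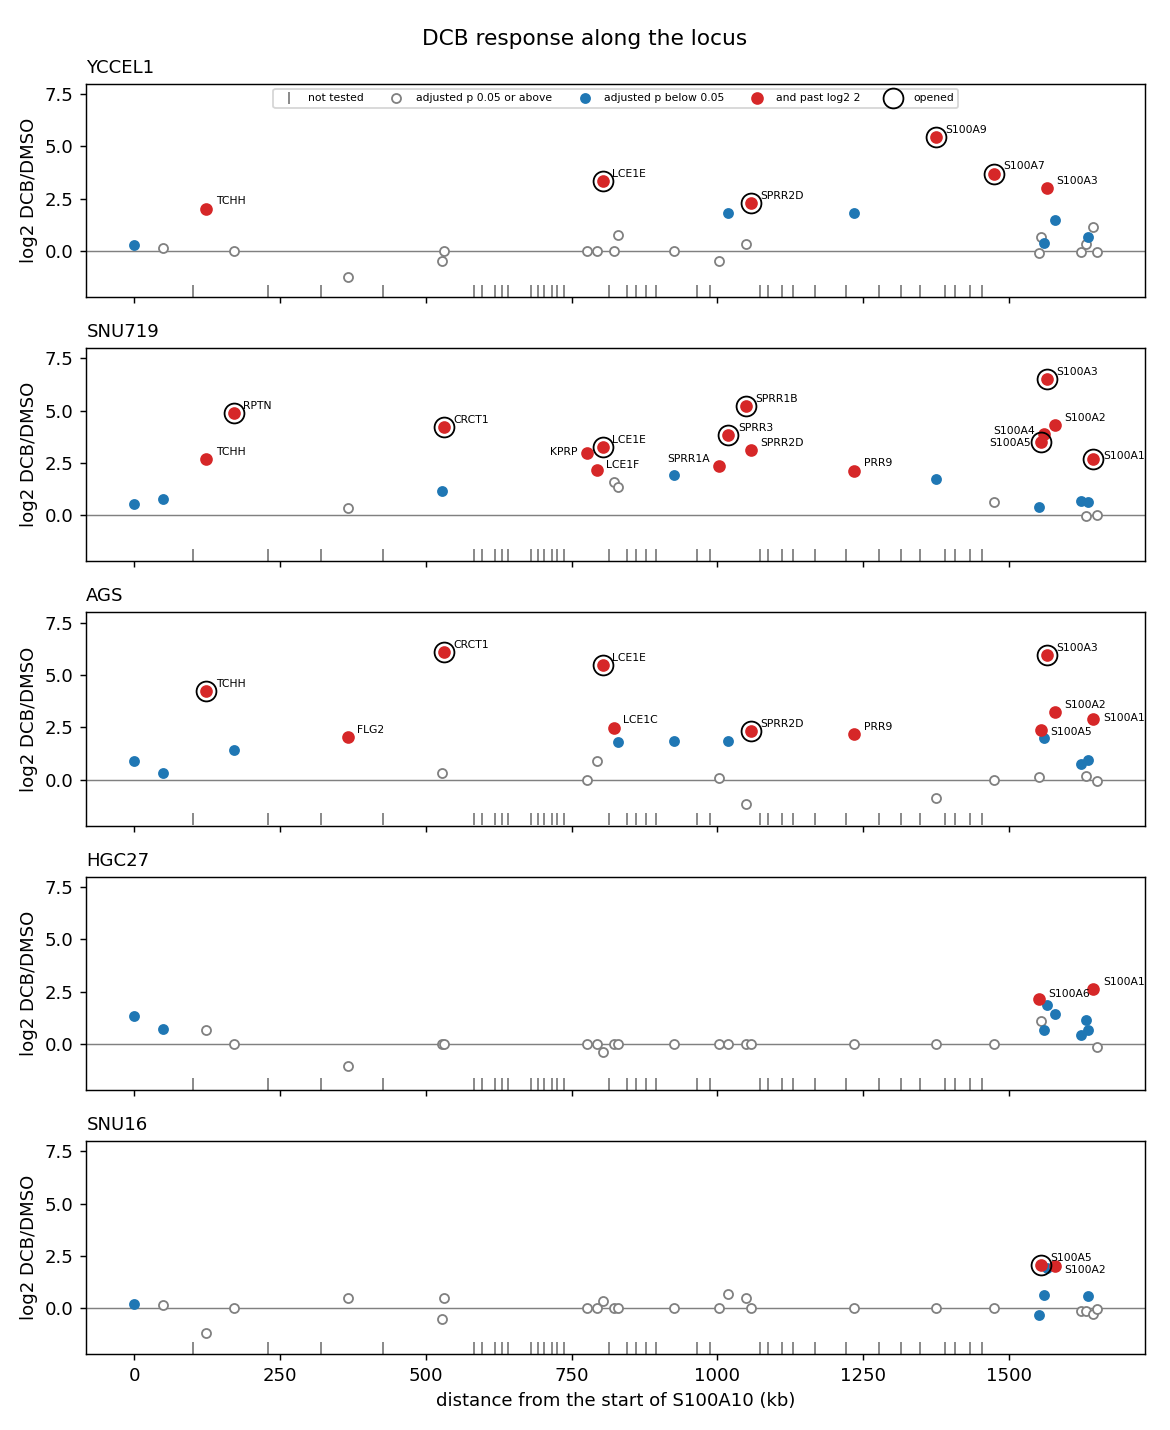
Log2 fold change of DCB over DMSO, on the log2(value + 1) scale, for each tested member against its distance from the lowest coordinate of S100A10, 1 panel per line. Red points passed both limits, blue points passed the adjusted p alone, open points did not pass, black rings mark members that opened, and ticks mark members not tested. Red points are spread over the whole locus in SNU719 and AGS, and lie only at the S100 end in HGC27 and SNU16.

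The fused S100-type genes come first after S100A10 and S100A11. TCHH (ENSG00000159450.12, chr1:152106317-152115454) encodes trichohyalin, which hardens the inner root sheath of the hair. AGS had 18.5 and 17.1 normalized counts with DCB against 0 and 0 with DMSO (adjusted p = 1.79e-04). SNU719 had 4.81 and 6.04 with DCB against 0 and 0 (adjusted p = 0.0074), and YCCEL1 had 3.31 and 2.86 against 0 and 0 (adjusted p = 0.0347). The gene was thus listed at 0 in DMSO in all 3 CIMP+ lines. In HGC27 it was at 6.89 and 3.89 with DCB against 3.46 and 2.42, and in SNU16 at 3.95 and 0 against 7.6 and 1.98, both without a call. The YCCEL1 call rests on about 3 reads a library. It was lost without any 1 of the 4 YCCEL1 libraries (DCB replicate 1 0.127, DCB replicate 2 0.1, DMSO replicate 1 0.121, DMSO replicate 2 0.122, as adjusted p).

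RPTN (ENSG00000215853.3, chr1:152153595-152159228) encodes repetin, an envelope protein of the upper epidermis. SNU719 had 26.9 and 30.2 normalized counts with DCB against 0 and 0 with DMSO (adjusted p = 9.41e-08). AGS had 2.52 and 0.963 against 0 and 0 (adjusted p = 0.00332), and the 12 libraries of YCCEL1, HGC27 and SNU16 were all at 0. RPTN was therefore an SNU719 gene with a trace in AGS.

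FLG2, a filaggrin relative (ENSG00000143520.6, chr1:152348735-152360006), was called only in AGS, at 2.52 and 3.85 with DCB against 0 and 0 with DMSO (adjusted p = 0.0168). Its call was lost without AGS DMSO replicate 1 (adjusted p = 0.0697), AGS DMSO replicate 2 (0.07) or AGS DCB replicate 2 (0.1). FLG itself, the filaggrin gene mutated in ichthyosis vulgaris, reached at most 5.05, in an AGS DCB library, and was not tested. HRNR and CRNN stayed at or below 2.52, and TCHHL1 was at 0 throughout. HRNR, FLG, FLG2 and CRNN lie under the antisense transcript FLG-AS1, and reads of the 2 strands cannot be told apart unless the counting used strand.

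Just past LCE5A, the first LCE gene after the fused genes, lies CRCT1 (ENSG00000169509.6, chr1:152514482-152516008), a cysteine-rich gene of squamous epithelium. AGS had 94.2 and 89.5 normalized counts with DCB against 0.892 and 0 with DMSO (log2 fold change 6.08 ± 0.39 SE, adjusted p = 6.04e-08). SNU719 had 20.2 and 15.1 against 0 and 0 (adjusted p = 3.49e-06). YCCEL1 and HGC27 were at 0 in all libraries, and SNU16 had 0.985 in 1 DCB library only. CRCT1 thus opened in both EBV- AGS and EBV+ SNU719 and in no YCCEL1 library.

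The LCE genes encode late cornified envelope proteins, and 9 of the 18 with an LCE symbol were at 0 in every library. LCE1E (ENSG00000186226.9, chr1:152786214-152788426) was the 1 member that opened in all CIMP+ lines. YCCEL1 had 21.4 and 13.4 normalized counts with DCB against 2.13 and 0 with DMSO (log2 fold change 3.34 ± 0.63 SE, adjusted p = 0.00165). SNU719 had 93.9 and 71.2 against 5.75 and 9.95 (3.27 ± 0.63, adjusted p = 0.00196). AGS had 28.5 and 101 against 0.538 and 0 (5.47 ± 0.63, adjusted p = 1.89e-05). The DCB and DMSO libraries did not overlap in any of the 3, although the AGS replicates lay far apart. HGC27 and SNU16 were at or below 0.695. None of its 12 values above 0 was a whole multiple of 1 read, so reads shared with near-identical LCE1 genes may be split among them.

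LCE1C (chr1:152804835-152806628) had 18.6 and 0.595 in the AGS DCB libraries against 0 and 0 in DMSO. That call (adjusted p = 0.0244) rests on DCB replicate 1 and was lost without AGS DMSO replicate 1 (adjusted p = 0.0902) or replicate 2 (0.0911). LCE1F (chr1:152776372-152776728) had 3.84 and 7.54 in SNU719 with DCB against 1.06 and 0 (log2 fold change 2.16 ± 0.50 SE, adjusted p = 0.00643), lost without SNU719 DMSO replicate 2 (0.0789). LCE1B rose in AGS at 7.57 and 1.93 against 0 and 1.12 (adjusted p = 0.0294). Its highest values were in SNU719, at 13.4 and 8.29 with DCB against 4.24 and 2.88 with DMSO, without passing the test (adjusted p = 0.11). LCE5A rose in SNU719 at 0.96 and 1.51 against 0 and 0 (adjusted p = 0.0459). LCE3E, LCE3D, LCE3A and LCE2C had values above 0 in DCB libraries only, at most 3.85, and were not tested. LCE1E was thus the only LCE gene that opened, while LCE1A and LCE1D of the same block were at 0 in every library.

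KPRP (ENSG00000203786.6, chr1:152759561-152762052), a keratinocyte proline-rich protein, was above 0 in SNU719 DCB libraries alone, at 7.68 and 6.03 normalized counts (adjusted p = 1.40e-06). IVL, which encodes involucrin, an early scaffold of the envelope, had 4.8 and 1.51 in SNU719 with DCB and 1.68 and 3.85 in AGS with DCB, against 0 in every other library (adjusted p = 0.00203 in SNU719 and 0.00205 in AGS). LORICRIN, the main envelope protein of the epidermis, was at 0 in every library, as were SMCP, LELP1 and C1orf68. Involucrin was thus detectable at a few reads in 2 of the CIMP+ lines, and loricrin was not detected.

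The SPRR genes encode small cross-bridging proteins of the envelope, and 5 of the 11 were at 0 throughout. SPRR1B (ENSG00000169469.9, chr1:153031203-153032900) opened in SNU719, at 101.8 and 119.9 normalized counts with DCB against 2.12 and 1.92 with DMSO (log2 fold change 5.21 ± 0.56 SE, adjusted p = 1.49e-05). In AGS it was at 0 and 0.963 with DCB against 3.57 and 1.12 with DMSO, and in YCCEL1 at 0 and 1.91 against 0.882 and 0. SPRR1B was therefore on in the DCB libraries of a single line.

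SPRR3 (ENSG00000163209.15, chr1:153001747-153003856), an esophageal type of the family, had 64 and 79.1 in SNU719 with DCB against 5.05 and 3.24 (log2 fold change 3.83 ± 0.58 SE, adjusted p = 3.09e-04). Smaller rises came in YCCEL1, at 7.98 and 4.54 against 2.97 and 0 (adjusted p = 0.0395), and in AGS, at 2.13 and 3.2 against 0 and 0 (adjusted p = 0.0292). SPRR1A (chr1:152985231-152985500) was called in SNU719, at 3.84 and 4.52 against 0 and 0 (adjusted p = 0.00828). The 3 neighbours SPRR1A, SPRR3 and SPRR1B thus shared SNU719 as their line with the highest DCB values.

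SPRR2D (ENSG00000163216.7, chr1:153039732-153041931) followed another pattern and was called in all 3 CIMP+ lines. YCCEL1 had 29.5 and 29.9 with DCB against 11.5 and 2.13 with DMSO (log2 fold change 2.29 ± 0.50 SE, adjusted p = 0.00458), a call lost without YCCEL1 DMSO replicate 2 (adjusted p = 0.0513). AGS had 25.6 and 29 against 3.82 and 5.77 (2.30 ± 0.50, adjusted p = 0.00339), and SNU719 had 9.08 and 6.46 against 0 and 0 (adjusted p = 4.89e-04). HGC27 and SNU16 were at 0. Like SPRR3, it had no value at a whole multiple of 1 read, and the near-identical SPRR2 copies make its share of the reads uncertain. SPRR2A was at 0.841 and 0 in AGS with DCB against 1.78 and 3.36 with DMSO.

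PRR9 (ENSG00000203783.5, chr1:153217584-153219310), a proline-rich gene near loricrin, was already on in AGS. It reached 89.1 and 68.3 there with DCB against 17.8 and 15.7 with DMSO (log2 fold change 2.16 ± 0.41 SE, adjusted p = 0.00128). SNU719 had 3.84 and 3.02 against 0 and 0 (adjusted p = 0.00185), and YCCEL1 had 1.1 and 4.76 against 0 and 0 (adjusted p = 0.00597). Both CIMP- lines were at 0. PGLYRP3 was at 0 and PGLYRP4 at most 0.964. These encode peptidoglycan recognition proteins of skin and mucosa.

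S100A9 (ENSG00000163220.11, chr1:153357854-153361023) encodes a calprotectin subunit, abundant in neutrophils and in inflamed epithelium. YCCEL1 had 357.6 and 402 normalized counts with DCB against 9.7 and 5.96 with DMSO (log2 fold change 5.46 ± 0.33 SE, adjusted p = 4.65e-08). SNU719 had 56.7 and 49.8 against 12.7 and 18.3 (1.73 ± 0.33, adjusted p = 0.00168). AGS had 13.5 and 14.4 against 27.6 and 24.6 (-0.86 ± 0.33, adjusted p = 0.0703). HGC27 and SNU16 were at 0. Both EBV+ lines rose, and the 2 AGS DCB libraries lay below both AGS DMSO libraries without passing the test. S100A8, which encodes the other calprotectin subunit, reached at most 2.75 and was not tested, and S100A12, known from granulocytes, at most 1.91. Of the 7 myeloid markers, only LYZ was abundant, and 2 were at 0 in both YCCEL1 DCB libraries.

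S100A7 (ENSG00000143556.9, chr1:153457744-153460651) encodes psoriasin, an antimicrobial protein of inflamed skin. It had 10.9 and 13.2 in YCCEL1 with DCB against 0 and 0 with DMSO (adjusted p = 4.86e-06), 0 and 1.49 in SNU719 with DCB, and 0 in every other library. Its neighbour S100A7A was at 0.754 in a single library and S100A7L2 at 0.

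The tail of the cluster, from S100A6 to S100A1, responded in more lines. S100A3 (ENSG00000188015.10, chr1:153547329-153549258), a cysteine-rich protein of the hair cuticle, rose in all 5. YCCEL1 had 10.8 and 8.97 normalized counts with DCB against 0 and 0.85 with DMSO (log2 fold change 3.0 ± 0.47 SE, adjusted p = 3.59e-04). SNU719 had 84.1 and 94.6 against 0 and 0 (adjusted p = 3.37e-07). AGS had 95.3 and 70.7 against 0.763 and 0 (5.97 ± 0.47, adjusted p = 4.37e-07). HGC27 had 22.5 and 30.1 against 4.42 and 9.3 (1.86 ± 0.47, adjusted p = 0.00977). SNU16 had 11.8 and 5.9 against 1.21 and 1.69 (1.95 ± 0.47, adjusted p = 0.0222). In no line did the DCB and DMSO libraries overlap. The gene lies inside S100A4 on the same strand over 1930 bases, so reads of the pair may have been left out or assigned to either.

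S100A2 (ENSG00000196754.13, chr1:153561108-153567890), a p53-family target of basal squamous cells, was on in every library and also rose in all 5 lines. YCCEL1 had 52 and 99.8 with DCB against 21.8 and 29.4 (log2 fold change 1.47 ± 0.28 SE, adjusted p = 0.00183). SNU719 had 410 and 338 against 18.9 and 16.8 (4.31 ± 0.28, adjusted p = 1.49e-07). AGS had 591 and 540 against 57 and 63.6 (3.21 ± 0.28, adjusted p = 1.44e-06). HGC27 had 138 and 146 against 50.3 and 53.4 (1.44 ± 0.28, adjusted p = 0.00187). SNU16 had 51.3 and 39.7 against 8.64 and 12.7 (2.01 ± 0.28, adjusted p = 5.24e-04). Again no groups overlapped, and the order of the DCB values put AGS and SNU719 on top.

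S100A4 (ENSG00000196154.12, chr1:153543613-153550136), a motility-associated protein of mesenchymal cells, was highest in HGC27, at 1744 and 1899 with DCB against 1138 and 1172 with DMSO (log2 fold change 0.66 ± 0.13 SE, adjusted p = 0.00191). Its largest response was in SNU719, at 431 and 386 against 23.7 and 30.6 (3.87 ± 0.13, adjusted p = 2.72e-10). AGS had 629 and 703 against 183 and 154 (1.98 ± 0.13, adjusted p = 8.05e-08). SNU16 had 1087 and 1153 against 697 and 762 (0.62 ± 0.13, adjusted p = 0.0103), and YCCEL1 had 160 and 148 against 111 and 125 (0.39 ± 0.13, adjusted p = 0.0479). SNU719 had the lowest DMSO level and the largest response, and YCCEL1, with the next lowest DMSO level, had the smallest.

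**Figure D4:**
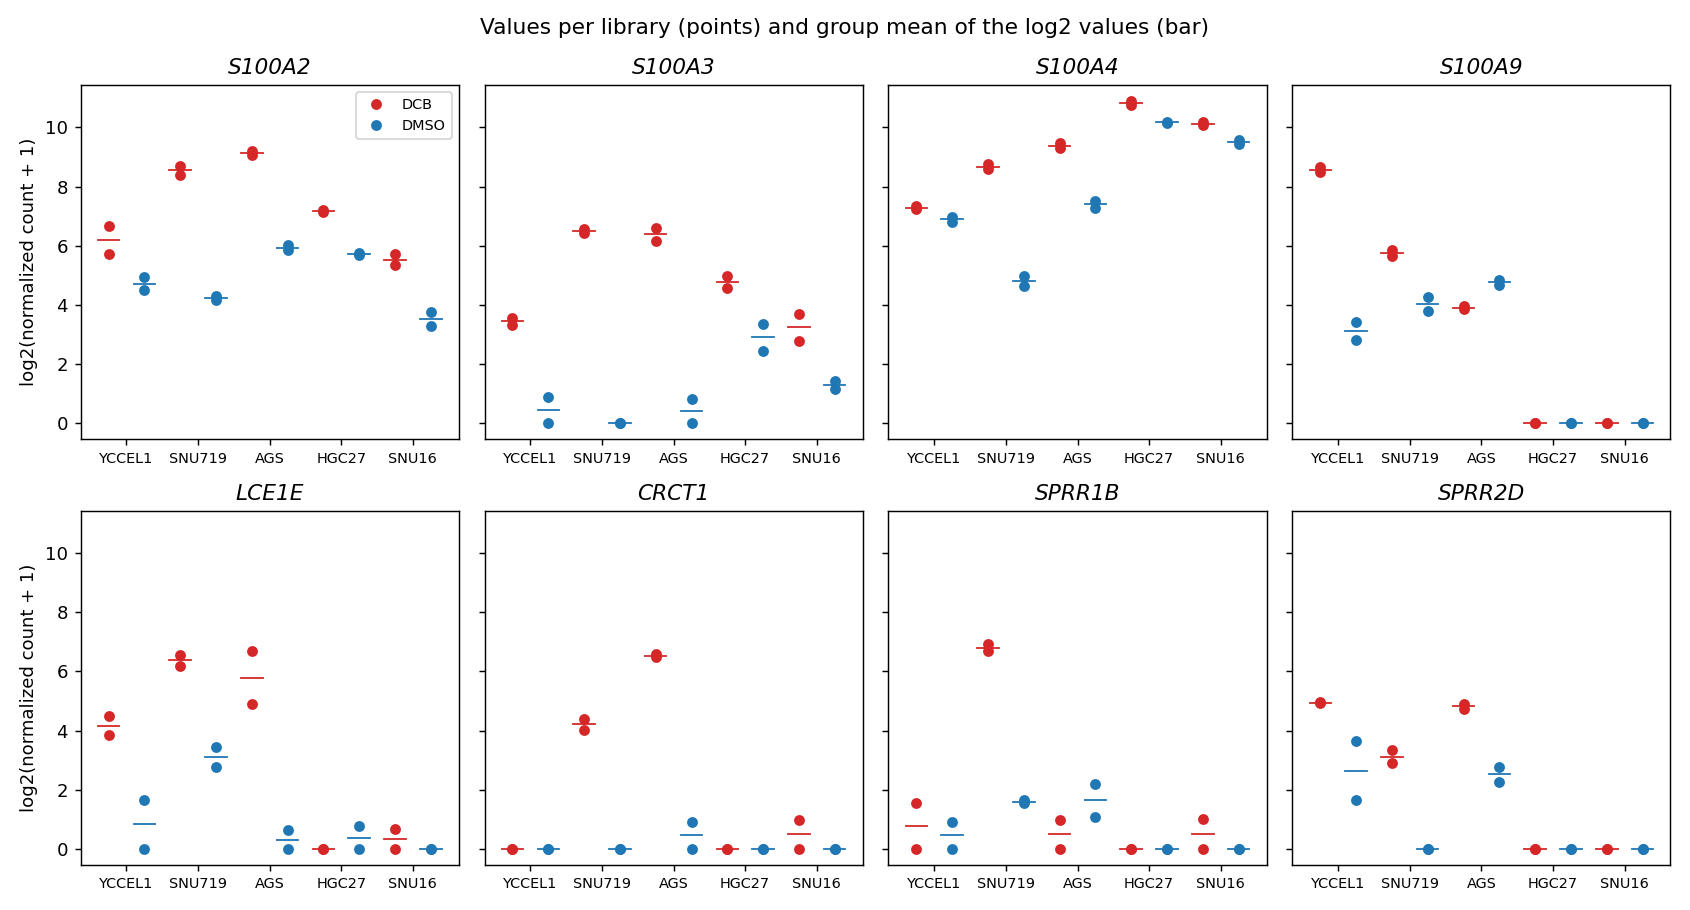
Log2(normalized count + 1) in each library for 8 members, with DCB libraries in red left of DMSO libraries in blue for each line. Short bars are the mean of the 2 log2 values. S100A2, S100A3 and S100A4 rose with DCB in each of the 5 lines, S100A9 in YCCEL1 and SNU719, SPRR1B in SNU719, CRCT1 in SNU719 and AGS, and LCE1E and SPRR2D in the 3 CIMP+ lines. Other differences shown did not pass the test.

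S100A5 (ENSG00000196420.7, chr1:153537147-153541765), known from olfactory neurons, was called in 3 lines at low levels. SNU719 had 9.8 and 11 with DCB against 0 and 0 with DMSO (adjusted p = 3.12e-04). AGS had 5.52 and 7.66 against 1.17 and 0 (log2 fold change 2.35 ± 0.54 SE, adjusted p = 0.00451), lost without AGS DMSO replicate 2 (adjusted p = 0.0598). SNU16 had 13.3 and 9 against 3.72 and 0.721 (2.07 ± 0.54, adjusted p = 0.0335), lost without SNU16 DCB replicate 1 (0.18), SNU16 DCB replicate 2 (0.0782) or SNU16 DMSO replicate 2 (0.276). The only opening in a CIMP- line thus depended on single libraries.

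S100A1 (ENSG00000160678.12, chr1:153627926-153632039), best known as a regulator of calcium handling in heart muscle, was on mainly in HGC27, at 593 and 575 with DCB against 223 and 39.1 with DMSO (log2 fold change 2.63 ± 0.77 SE, adjusted p = 0.0225). SNU719 had 16 and 10 against 0.841 and 1.38 (2.71 ± 0.77, adjusted p = 0.0212), and AGS had 5.34 and 7.7 against 0 and 0 (adjusted p = 0.0116). The DMSO replicates of HGC27 were far apart, and without DMSO replicate 2 the HGC27 adjusted p was 0.257, without DCB replicate 1 it was 0.0952 and without DCB replicate 2 it was 0.0856. In SNU719 the call was lost without DCB replicate 1 (0.13), DCB replicate 2 (0.0525), DMSO replicate 1 (0.109) or DMSO replicate 2 (0.0634), and in AGS without DCB replicate 2 (0.0726), DMSO replicate 1 (0.052) or DMSO replicate 2 (0.0519). S100A1 overlaps S100A13 on the opposite strand over 3435 bases. S100A13, which takes part in the release of growth factors that lack a signal peptide, had 1184 and 1242 in HGC27 with DCB against 754 and 800.

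Among the S100 genes with high values, responses varied by line. S100A6 (ENSG00000197956.10, chr1:153534599-153536244), or calcyclin, was at 8043 and 8290 in YCCEL1 with DCB against 8495 and 8792 with DMSO (log2 fold change -0.08 ± 0.06 SE, adjusted p = 0.389). It was at 10363 and 10360 in SNU719 against 7945 and 8063 (0.37 ± 0.06, adjusted p = 3.94e-04), and at 7686 and 7417 in AGS against 6964 and 6906 (0.12 ± 0.06, adjusted p = 0.148). SNU16 had 5289 and 5248 with DCB against 6691 and 6676 (-0.34 ± 0.06, adjusted p = 0.00248), the single fall of the locus. HGC27 stood far below, at 90.6 and 76.4 against 18 and 17.9 (2.15 ± 0.06, adjusted p = 6.90e-12). The same gene was thus called higher where it was lowest and fell in SNU16.

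S100A10, the annexin A2 partner (ENSG00000197747.9, chr1:151982915-151993859), rose in all 5 lines by less than the limit for a call. The log2 fold change was 0.27 ± 0.05 SE in YCCEL1, 0.54 ± 0.05 in SNU719, 0.88 ± 0.05 in AGS, 1.33 ± 0.05 in HGC27 and 0.20 ± 0.05 in SNU16. Its highest level was 15453 and 16001 in AGS with DCB, against 8312 and 8775 with DMSO, and its lowest was in HGC27, at 1056 and 1115 against 419 and 446. S100A11, a partner of annexin A1 (chr1:152032506-152047907), rose in SNU719 (0.77 ± 0.06), AGS (0.31 ± 0.06) and HGC27 (0.72 ± 0.06). S100A16 (chr1:153606886-153613145) rose in the same 3 lines, by 0.69 ± 0.09, 0.75 ± 0.09 and 0.44 ± 0.09 in that order. S100A13 (chr1:153618787-153631360) rose in all 5, between 0.58 ± 0.13 in SNU16 and 0.96 ± 0.13 in AGS. S100A14 ranged from 2.43 in an HGC27 DMSO library to 4848 in an SNU719 DMSO library, and rose only in HGC27 (adjusted p = 0.0473), where single libraries held it at 15.8 and 11.7 with DCB against 2.43 and 11.9 with DMSO. CHTOP, a chromatin-associated gene at the end of the interval, had log2 fold changes from -0.17 to 0.03 and passed the test in no line. All-gene medians of the log2 fold change were 0.013 to 0.121 over the 5 lines. The rises named here lay above these medians, as do the values of many other genes, so they are not shown to be particular to S100 genes. S100A16 had -0.07 in YCCEL1 and -0.14 in SNU16, and S100A14 had -0.03 in SNU719 and -0.11 in SNU16.

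**Figure D5:**
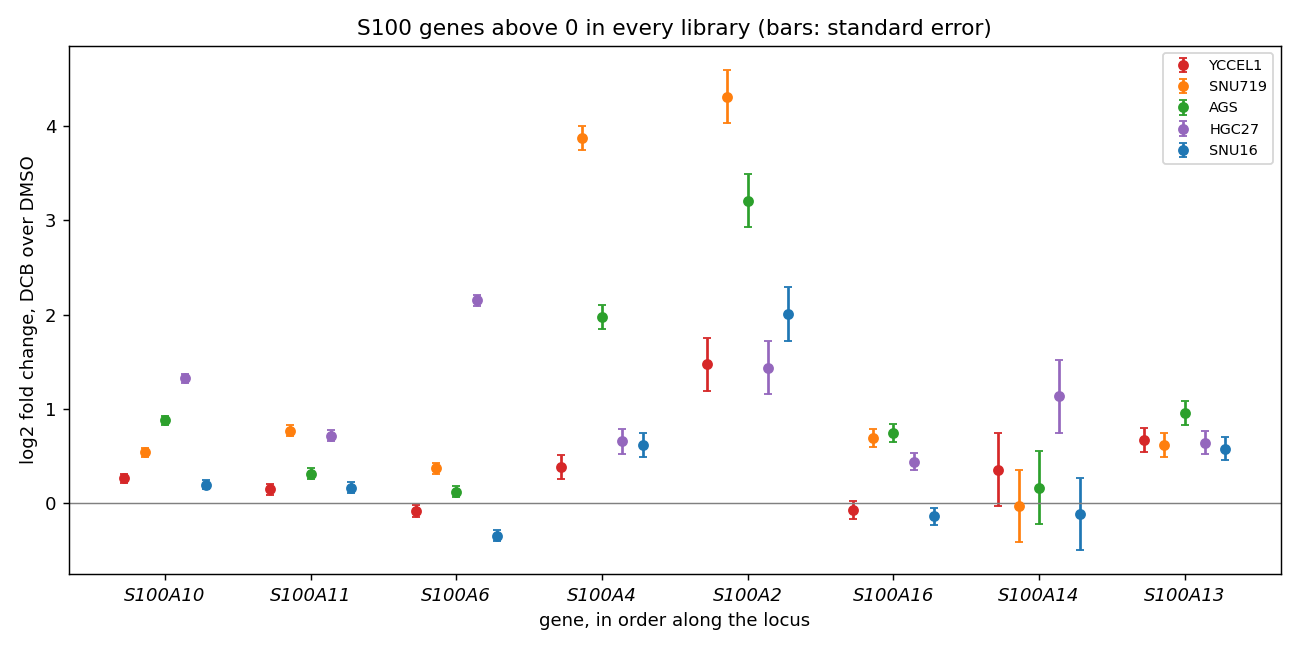
Log2 fold change of DCB over DMSO, on the log2(value + 1) scale, for the 8 S100 genes above 0 in every library, with 1 point per line and bars for the standard error of the fit. S100A2 and S100A4 reach 4.31 and 3.87 in SNU719, while S100A10, S100A11, S100A16 and S100A13 stay below 1.4 in each line and S100A6 exceeds 1 only in HGC27.

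The question of a CIMP or EBV class effect was put to the responses themselves. The mean response of the 3 CIMP+ lines minus that of the 2 CIMP- lines passed both limits for 9 members, TCHH, RPTN, CRCT1, LCE1E, SPRR3, SPRR2D, PRR9, S100A9 and S100A3, beside 3.68% of all genes. Without the fold limit it was larger for 15 members (12.8% of all genes) and smaller for 2 (8.94%), and 0 were smaller past both limits (0.534%). The difference of log2 fold changes was 4.05 ± 0.58 SE for LCE1E, 3.25 ± 0.43 for S100A3, 3.24 ± 0.58 for TCHH and 3.18 ± 0.35 for CRCT1. These are differences of class means. Within lines, RPTN and SPRR3 were called in SNU719 alone and S100A9 in YCCEL1 alone, and S100A9 had a log2 fold change of -0.86 ± 0.33 in AGS, the third CIMP+ line. CRCT1 and RPTN were at 0 in every YCCEL1 library. Both passed the filter only through DCB libraries of SNU719 and AGS. The direction of their class difference was thus fixed by the filter and is no support for a class effect. The same holds for KPRP, IVL and S100A7 among the 15, which were above 0 only in DCB libraries of CIMP+ lines. The response was smaller in CIMP+ lines, without passing the fold limit, for S100A10 (-0.20 ± 0.04) and S100A6 (-0.77 ± 0.05), and without HGC27 these 2 differences turned to 0.37 and 0.48. Without HGC27, SPRR3 no longer passed the test (adjusted p = 0.15), nor did S100A7, IVL, S100A2 and KPRP, which had passed without the fold limit. The p-values measure the spread between libraries and not between lines, and an exact permutation over 3 against 2 lines cannot go below 0.1.

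The mean response of the 2 EBV+ lines minus that of the 3 EBV- lines passed both limits for 3 members, beside 2.78% of all genes. Without the fold limit it was larger for 10 members (10.5% of all genes) and smaller for 2 (9.17%), S100A10 (-0.40 ± 0.04) and S100A6 (-0.50 ± 0.05), and 0 were smaller past both limits (0.658%). Without HGC27 the S100A6 difference turned to 0.26, and S100A10, SPRR3, SPRR2D, S100A3 and PRR9 no longer passed. The 3 members larger past both limits were S100A9 (3.88 ± 0.30), SPRR1B (2.98 ± 0.51) and S100A7 (2.18 ± 0.33). SPRR1B rose in SNU719 and had a log2 fold change of 0.31 ± 0.56 in YCCEL1 (adjusted p = 0.791), and S100A7 rose in YCCEL1 and had 0.66 ± 0.36 in SNU719 (adjusted p = 0.236). Of the 3 only S100A9 rose in both EBV+ lines. S100A7 passed the filter only through DCB libraries of the EBV+ lines, which fixed the direction of its difference. The same holds for RPTN and KPRP among the 10, which passed it only through SNU719 DCB libraries. The response differed among the 5 lines, by a moderated F test, for 20 of the 30 tested members, beside 34.2% of all genes. With line as a covariate, 4 members were called higher in the effect pooled over lines, CRCT1, LCE1E, S100A3 and S100A2, beside 3.4% of all genes. Without the fold limit 16 rose (17.9%), and 0 fell (6.94%) or were called lower (0.00731%). Of the 16, S100A16 no longer passed without HGC27. CRCT1 and IVL passed the filter only through DCB libraries of SNU719 and AGS, which fixed their direction. LCE1E was at or below 0.695 in HGC27 and SNU16. A pooled call thus does not show a rise in every line.

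Genes elsewhere in the genome that act with the locus were examined as lists. Of 20 cornified envelope partners, 19 were tested, and 10 rose in YCCEL1 (14.6% of all genes), 12 in SNU719 (13.5%), 10 in AGS (18.5%), 4 in HGC27 (14.7%) and 3 in SNU16 (4.5%), with median log2 fold changes of 1.56, 2.28, 1.40, 0.11 and 0.36 in that order. KLK5, a protease that sheds corneocytes, had 151 and 189 normalized counts in YCCEL1 with DCB against 0 and 0 with DMSO, and 320 and 346 in AGS against 4.22 and 6.35. KLK7, a second such protease, had 104 and 103 in SNU719 with DCB against 0 and 0. CDSN, which encodes corneodesmosin, had 72 and 52 in SNU719 with DCB against 0 and 0.962, and 61.4 and 51 in AGS against 1.78 and 3.36. TGM1, a transglutaminase that builds the envelope, was called in AGS, at 124 and 61.9 against 23.6 and 6.41, and in HGC27, at 50.5 and 27.8 against 1.95 and 7.06. The 1 fall was DSC1, a desmosomal cadherin of the upper epidermis, in HGC27, at 2.95 and 7 with DCB against 61.1 and 83.7 with DMSO (limma adjusted p = 0.00449).

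Of 19 regulators known for the locus in skin, all were tested, and 6 rose and 1 fell in YCCEL1, 7 rose and 1 fell in SNU719, 10 rose and 2 fell in AGS, 6 rose and 2 fell in HGC27, and 1 rose and 2 fell in SNU16. Over all genes, 14.6% rose and 6.93% fell in YCCEL1, 13.5% and 7.64% in SNU719, 18.5% and 9.13% in AGS, 14.7% and 9.03% in HGC27, and 4.5% and 2.34% in SNU16. ZNF750, an inducer of terminal differentiation, had 0 in all 10 DMSO libraries and reached 5.12 and 5.3 in YCCEL1, 3.56 and 6.29 in SNU719, 3.9 and 5.35 in AGS and 4.56 and 4.32 in HGC27 with DCB. TP63, the master regulator of stratified epithelium, was at 14.3 and 23.4 in SNU719 with DCB against 21.8 and 26.1 with DMSO, and passed the test in the other 4 lines but not there. KLF4, a barrier regulator, rose in SNU719 (1.28) and AGS (0.70) and fell in HGC27 (-0.55) and SNU16 (-0.44) on the log2 scale. Of 10 S100 genes elsewhere and S100 partners, 2 rose and 0 fell in YCCEL1, 5 rose and 1 fell in SNU719, 2 rose and 2 fell in AGS, 2 rose and 1 fell in HGC27, and 0 rose and 1 fell in SNU16. Against the same shares of all genes, most counts of this list of 10 were near the background, apart from the 5 that rose in SNU719. Among the 19 regulators, the share that rose was above that of all genes in YCCEL1, SNU719, AGS and HGC27. Neither difference was tested. S100P, a placental S100 gene on another chromosome, had 385 and 351 in SNU719 with DCB against 11.6 and 6.73, and 263 and 260 in AGS against 1113 and 1073, opposite directions that both passed the limits.

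Of 7 stratified epithelial markers, 6 were tested, and 2 rose in YCCEL1 (14.6% of all genes), 5 in SNU719 (13.5%), 5 in AGS (18.5%), 3 in HGC27 (14.7%) and 2 in SNU16 (4.5%). The 1 fall was KRT10 in HGC27. Their sum was 1821 to 1867 in SNU719 with DCB against 1000.2 to 1018 with DMSO, 1228 to 1351 in AGS against 294 to 325, and 250.4 to 260.3 in HGC27 against 374 to 403. KRT14, a basal keratin, had 191 and 148 in AGS with DCB against 9.78 and 8.82. Fibroblast markers also moved: their sum was 1922 to 2002 in AGS with DCB against 291 to 302 with DMSO, 108 to 125 in SNU719 against 26 to 41.7, and 85.3 in both YCCEL1 DCB libraries against 7.33 to 27.8. In SNU16 it was 75.4 to 95.3 with DCB against 13.4 to 26.1. Of the 5 fibroblast genes, 3 rose in YCCEL1, 2 in SNU719, 1 in AGS, 1 in HGC27 and 0 in SNU16. The part of these markers in the response of the locus was not tested.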

How the data were processed

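RNA-seq of 5 gastric cancer lines with DCB or DMSO was analysed, 2 libraries for each of 10 groups, mapped by sample titles. The authors deposited 1 table of normalized counts, a signal per gene that is not whole (36.4% to 44.5% of low values came out as whole reads, within 0.02 of a step), so no count model was used. The submitters' processing notes name a poly(A) kit, the GRCh37 build, alignment with STAR (2.5.2b), and the tools featureCounts (1.5.1) and DESeq2 (1.14.1). The study's methods name a strand-specific 3′ kit and GRCh38, and the table's coordinates matched a GRCh38 annotation exactly for 92.6% of the 60064 genes found in it. Which kit made the libraries, and whether counting used strand, is thus not settled. The study's text names MKN74 in places where the labels name HGC27, and the labels were followed. CIMP classes come from the study's text.

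limma 3.58.1 in R 4.3.3 (lmFit, eBayes with trend) was fitted to log2(value + 1) over 10 groups, for 27350 of 60232 genes with a sum above 10, with Benjamini-Hochberg adjustment over all of them. Class differences were contrasts of responses, and the pooled effect had line as covariate. Library depth was 7101712 to 10731382 read equivalents. Values were given in every library for members called in a line, at most 8 a family, and for S100 genes above 10 in every group. The fit was tested on simulated data. The members and lists were chosen with earlier results of these data known. Alternatives were other pseudocounts (0.5, 5), filters, fold limits, scalings, no trend, a replicate block, lines fitted alone, each library left out, and, added after seeing the data, HGC27 left out. Replicate numbers did not pair libraries, with correlations of deviations from -0.019 to 0.015. Promoter windows came from RefSeq (GRCh38.p14), and CRCT1, SPRR2D, LCE1B, SPRR2E and S100A7L2 were not matched.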

Additional observations from a re-analysis of the deposited data

Results flagged for a closer look

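The response to DCB differed between CIMP+ and CIMP- lines, by limma's test of the difference with Benjamini-Hochberg adjustment, for 9 members of the locus, with adjusted p of 2.1e-05 for CRCT1, 9.3e-05 for S100A3, 1.0e-04 for RPTN, 1.9e-04 for LCE1E and for S100A9, 0.00109 for TCHH, 0.00112 for SPRR2D, 0.00142 for PRR9 and 0.01 for SPRR3. In each of the 9 the class mean was larger in CIMP+ lines, but not every line followed it: S100A9 had a log2 fold change of -0.86 in AGS, CRCT1 and RPTN were at 0 in YCCEL1, and SPRR3 was lost without HGC27 (adjusted p = 0.15). The response differed between EBV+ and EBV- lines for 3 members, with adjusted p of 7.6e-07 for S100A9, 3.1e-04 for S100A7 and 9.3e-04 for SPRR1B, with larger class means in the EBV+ lines. SPRR1B did not pass in YCCEL1 (0.31) nor S100A7 in SNU719 (0.66), and SPRR1B had 0.50 in SNU16. For CRCT1, RPTN and S100A7 the direction was fixed by the filter, which they passed only through DCB libraries of the class with the larger mean. Among the 5 lines, limma's F test found a different response for 20 members, and for S100A6 (adjusted p = 4.5e-10) HGC27 had a log2 fold change of 2.15 and SNU16 one of -0.34. All of these rest on the spread between 2 libraries a group, pooled over the 10 groups.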

How the results depend on the processing

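Counts of members called moved with the pseudocount and the fold limit most. Shares of all genes were counted only at the main settings and with no fold limit, so the other counts here have no background beside them. With a pseudocount of 0.5, 7 were higher over 5 lines, 6 larger in EBV+ lines, and 0 opened in SNU16. With 5, the counts higher were 1 (YCCEL1), 8 (SNU719), 5 (AGS), 1 (HGC27), 0 (SNU16) and 2 (over 5 lines), 2 were larger in CIMP+ lines, 1 opened in YCCEL1 and 0 in SNU16. With no fold limit, the counts higher were 12 (YCCEL1), 20 (AGS), 10 (HGC27), 6 (SNU16, with 1 lower) and 16 (over 5 lines), with 15 larger and 2 smaller in CIMP+ lines, and 10 larger and 2 smaller in EBV+ lines. With a limit of 1, they were 6 (HGC27), 11 (over 5 lines) and 10 (larger in EBV+ lines). SNU16 had 1 called and 0 opened with no filter, with the replicate block and without HGC27, 1 called with median-of-ratios scaling, 2 opened with totals rescaled, and 0 called and 0 opened when fitted alone, where HGC27 had 1 called. Leaving out 1 library at a time gave 0 to 2 called higher and 0 to 1 lower in SNU16, 0 to 1 opened there, 1 to 3 higher and 0 to 1 lower in HGC27, 0 to 2 opened there, and 3 to 5 larger in EBV+ lines, against 4 to 6 higher in YCCEL1, 13 to 16 in SNU719 and 8 to 11 in AGS. Of 118 results for single members, 16 of 63 no longer passed with each line fitted alone, 15 of 108 without HGC27, 9 with a pseudocount of 5, 8 without trend, 6 with no filter, 4 with a pseudocount of 0.5, 1 with median-of-ratios scaling, and 12 with the replicate block, although replicate numbers did not pair the libraries. It cost the calls of S100A5 in SNU16 and SPRR1A in SNU719 (adjusted p = 0.0503) among the line calls. No direction turned except without HGC27, where the CIMP+ minus CIMP- response became 0.37 for S100A10 and 0.48 for S100A6, and the EBV+ minus EBV- response 0.26 for S100A6. The cause was not tested. Depth limits the members near 10 normalized counts or below.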

Other observations

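The locus also holds 30 rows that are not protein-coding, and 15 of them were at 0 in every library. FLG-AS1, the transcript antisense to the filaggrin genes, had 483 and 474 normalized counts in AGS with DCB against 524 and 71.7 with DMSO, and 47.8 and 21.9 in YCCEL1 with DCB against 5.1 and 212 with DMSO. In SNU719 it had 33.4 and 40.4 with DCB against 2.96 and 3.17 with DMSO. In HGC27 and SNU16 it stayed at or below 2.76. The DMSO replicates of AGS and of YCCEL1 thus lay far apart for this gene, while FLG, beneath it, had at most 5.05. AL162258.2, near S100A1 and CHTOP, was at 16.7 or more in every library. AL450992.1, opposite S100A11, had 15.1 and 19.3 in AGS with DCB against 3.57 and 5.6 with DMSO, and 10.6 and 10.6 in SNU719 with DCB against 2.12 and 3.85 with DMSO. SPRR2C and S100A7P1, pseudogenes within the SPRR and S100A7 runs, were at 0 throughout.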
